A study of Ovis aries with 40 samples.

Results

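The genes described here encode the subunits of the proteasome, with the 20S core and the 19S cap that make up the complete particle. They were all genes on the array whose symbol starts with PSMA, PSMB, PSMC or PSMD and a number, without the immunoproteasome genes PSMB8, PSMB9 and PSMB10. Of the 9155 genes that had a probe set with 1 symbol, 29 met this rule, namely 6 of the alpha ring, 7 of the beta ring, 6 ATPases and 10 non-ATPases. The last include 3 assembly chaperones of the cap, which the symbols class with the subunits and which are counted with them and with the cap below. Each gene was represented by its probe set with the highest mean signal. All 29 were among the 6360 detected genes, those whose mean signal reached 61.8, the middle value of all non-control probe sets.

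RNA came from the longissimus dorsi (LM), the loin muscle, of 40 Poll Dorset sheep at 78 weeks of age, and was hybridised to 1 GeneChip Bovine Genome array per animal. The animals were progeny of 6 sires and were classed as high or low in estimated breeding value for eye muscle depth, a measure of the depth of the loin. The high muscling group consisted of 19 animals (8 by sire 11, 7 by sire 2 and 4 by sire 7), and the low muscling group of 21 (8 by sire 16, 5 by sire 17 and 8 by sire 5). No sire had progeny in both groups, so each group samples 3 sires, and a difference between the groups cannot be told apart from a difference between these 2 sets of sires. A sire is called here by the group of its progeny, and no measurement of muscle on the animals themselves was used here. The probes were designed on bovine sequence.

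The proteasome degrades proteins that carry chains of ubiquitin. The core is a barrel of stacked rings, in which the outer alpha rings gate the entrance and the inner beta rings carry the sites that cut the substrate. The cap sits on the end of the barrel, where its non-ATPase subunits recognise ubiquitin and remove it, and its ring of ATPases unfolds the protein and feeds it into the core. In muscle the proteasome breaks down much of the contractile protein during turnover and wasting. The comparisons below ask how the RNA levels of the subunits differed between the muscling groups and from sire to sire within a muscling group.

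The values are MAS5 signals, fluorescence intensities summarised per probe set on a linear scale, and differences are on the log2 scale. The 40 arrays had median signals of 56.1 to 67, and the spiked controls had mean log2 signals of 11.03 to 11.25 in high and 10.86 to 11.27 in low muscling. The markers of skeletal muscle were high in every animal, with a summed signal of 180442 to 247825 in high and 181884 to 246011 in low muscling (9 of 10 markers measured). All 7 fibroblast markers were detected, and 5 of them (COL1A1, COL1A2, COL3A1, DCN and FBN1) were lower in high muscling (limma, adjusted p from 0.0131 to 0.0499). Their summed signal was 5449 to 13027 in high and 8363 to 25006 in low muscling. Of 10 macrophage and leukocyte markers 7 were measured and 5 detected, with 1 (AIF1) lower in high muscling (adjusted p = 0.0156) and summed signals of 665.1 to 1303 and 727.7 to 2329. No marker of adipocytes, endothelium or red blood cells passed the same test between the groups (adjusted p under 0.05), although the summed signal of the 5 endothelial markers was 1428 to 2330 (median 1929) in high and 1720 to 3040 (median 2422) in low muscling. In RNA of whole muscle, fewer cells of a type and less RNA per cell cannot be told apart.

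Subunits of the core were lower in the progeny of high muscling sires, with 7 of 13 called, whereas 3 of the 16 cap genes, chaperones included, were called. With limma, sire as a random block and p-values adjusted over all detected genes, 10 of the 29 subunits were called at an adjusted p under 0.05, against 7.78% of the 6360 genes. All 10 were lower in high muscling (5.5% of all genes were called lower), and 0 were higher (2.28%). At an unadjusted p under 0.05 there were 14, also all lower, against 21.8% of all genes in either direction. Those called were PSMA1, PSMA3, PSMA5 and PSMA6 of the alpha ring, PSMB3, PSMB4 and PSMB7 of the beta ring, PSMC2 and PSMC4 of the ATPases and PSMD6 of the lid of the cap. Their fitted differences (high minus low) ranged from -0.50 to -0.18, that is, 1.13-fold to 1.42-fold lower signals in high muscling. The median difference of the 29 subunits was -0.22, against -0.04 over all detected genes. The fit used the same correlation within sires for all genes. For subunits with larger differences between families, such as PSMA3 and PSMB3, the p-values between the groups may therefore be too small.

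**Figure D1:**
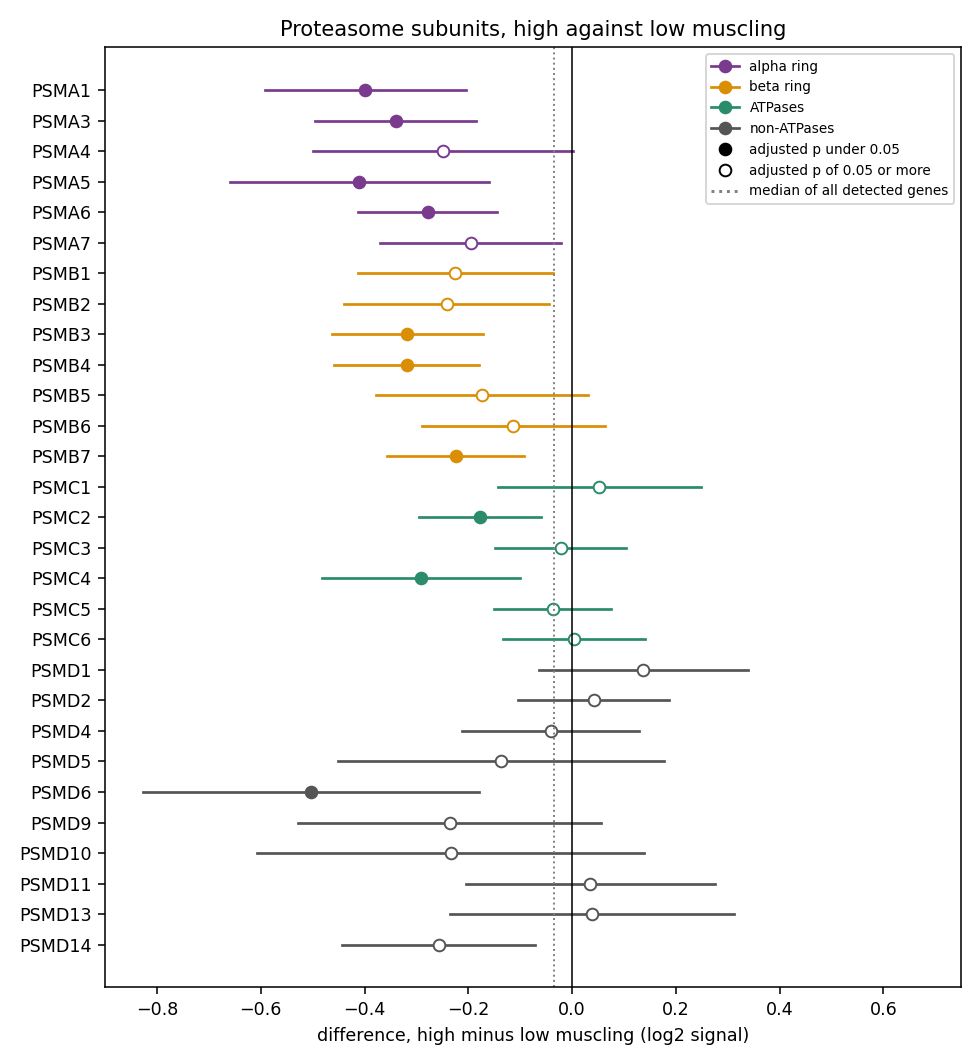
Difference in log2 signal between high and low muscling (high minus low, x axis) for each of the 29 subunits (y axis), with 95% confidence intervals from limma, coloured by class. Filled points have an adjusted p under 0.05, open points do not, and the dotted line is the median over the 6360 detected genes; all 13 alpha and beta subunits lie below 0 while PSMC1, PSMC6, PSMD1, PSMD2, PSMD11 and PSMD13 lie above it.

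The direction was shared by the whole core. The fitted difference was below 0 for 6 of 6 alpha and 7 of 7 beta subunits, with medians of -0.31 and -0.22, and in the ATPases and non-ATPases for 4 of 6 and 6 of 10, with medians of -0.03 and -0.09. Of all detected genes, 44.2% were higher in high muscling. This contrast of core and cap in direction depended on the scaling. With median centring 13 of 13 core genes, 6 of 6 ATPases and 9 of 10 non-ATPases were below 0, with 64.7% of all genes and medians of -0.09 for the ATPases and -0.15 for the non-ATPases. With quantile normalization 13 of 13, 2 of 6 and 5 of 10 were, with 59.4% of all genes. The number called was 4 of 6 for the alpha ring, 3 of 7 for the beta ring, 2 of 6 for the ATPases and 1 of 10 for the non-ATPases. Whether the classes differ from each other was not tested, since the subunits of a class were measured in the same animals. The 13 core subunits kept a difference below 0 under each of the 16 alternative settings of the comparison, which reuse the same animals. For PSMB5 and PSMB6, however, the difference came as close to 0 as -1.4e-04 and -0.010. The number of subunits called depended on the setting and on which sire families were included.

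The alpha subunits form the outer rings and the gate of the core. PSMA3 (gene 505176) had signals of 2828 to 4732 in high muscling, with a median of 3525, and of 3613 to 5186 in low muscling, with a median of 4526. Of the 19 high animals, 10 were below the lowest of the low group, and all 21 low animals were above the median of the high group. The difference was -0.34 ± 0.08 (SE, adjusted p = 0.00501 by limma). PSMA1 (gene 515503) ranged from 1812 to 3248, median 2372, in high muscling and from 2415 to 3807, median 3127, in low muscling, a difference of -0.40 ± 0.10 (adjusted p = 0.00796). The groups overlapped in part, with 12 high animals under the lowest low animal and 7 low animals over the highest high animal.

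PSMA6 (gene 507213) was the alpha subunit with the least overlap. Its signal was 6353 to 9342, median 8424, in high and 8474 to 11235, median 9971, in low muscling, and 17 of 21 low animals were above the highest of the high group. The difference was -0.28 ± 0.07 (adjusted p = 0.00731). PSMA5 (gene 510155) ranged from 1115 to 2333 (median 1682) and from 1348 to 2921 (median 2280), with a difference of -0.41 ± 0.12 (adjusted p = 0.0335) and wide overlap of the groups. The remaining alpha subunits did not pass, PSMA7 with -0.20 ± 0.09 (adjusted p = 0.170) and PSMA4 with -0.25 ± 0.12 (adjusted p = 0.234). The signals of PSMA4 in high muscling ran from 740.6 to 2074 against 1313 to 2089 in low muscling.

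In the beta ring, PSMB4 (gene 506203), a subunit without a catalytic site of its own, had the smallest p of all subunits. Its signal was 3656 to 5348 in high muscling, with a median of 4389, and 4615 to 6865 in low muscling, with a median of 5550. The groups overlapped in part, with 13 of 19 high animals below the lowest low animal and 13 of 21 low animals above the highest high animal. The difference was -0.32 ± 0.07 (adjusted p = 0.00376). PSMB3 (gene 533874), also not catalytic, ranged from 3001 to 4512 (median 3630) in high and from 3542 to 5193 (median 4608) in low muscling, with the same difference of -0.32 ± 0.07 (adjusted p = 0.00503).

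The catalytic subunits of the standard core are PSMB5, PSMB6 and PSMB7, and only the last of them was called between the muscling groups. PSMB7 (gene 511207), which cuts after basic residues, had signals of 3157 to 4491 (median 3692) in high and 3588 to 5157 (median 4396) in low muscling, a difference of -0.22 ± 0.07 (adjusted p = 0.0284). For PSMB5, which cuts after hydrophobic residues, the difference was -0.17 ± 0.10 (95% confidence interval -0.38 to 0.03, adjusted p = 0.325). PSMB6, which cuts after acidic residues, had -0.11 ± 0.09 (-0.29 to 0.06, adjusted p = 0.488). In both, sire families within a group differed widely, as given below. PSMB1 had -0.22 ± 0.09 (adjusted p = 0.136). PSMB2 had -0.24 ± 0.10 (adjusted p = 0.126), and a further probe set of PSMB2 differed by -0.44 ± 0.09 (unadjusted p = 3.5e-05, r = 0.73 with the probe set used).

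Of the ATPases, which form the ring that unfolds substrates, PSMC2 and PSMC4 were called and the other 4 were near 0. PSMC2 (gene 530186) had signals of 4837 to 7078 (median 6363) in high and 6434 to 7406 (median 6835) in low muscling. The low group lay in a narrow band, and 11 of 19 high animals fell below it. The difference of -0.18 ± 0.06 was at the edge of the threshold (adjusted p = 0.0499), and a second PSMC2 probe set, with r = 0.30 to the first, had 0.02 ± 0.11. PSMC4 (gene 510029) ranged from 918.3 to 1933 (median 1222) in high and from 1255 to 1830 (median 1604) in low muscling, a difference of -0.29 ± 0.09 (adjusted p = 0.0493). Here 12 high animals were below all of the low group, while 1 high animal gave the highest signal of all 40.

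For PSMC1, PSMC3, PSMC5 and PSMC6 the differences were 0.05, -0.02, -0.04 and 0.00, with adjusted p-values from 0.765 to 0.985. The 95% confidence intervals reached from -0.15 to 0.08 for PSMC5, from -0.15 to 0.10 for PSMC3, from -0.13 to 0.14 for PSMC6 and from -0.14 to 0.25 for PSMC1. None of these 4 intervals reached the difference of -0.22 that was the median of the subunits. A second probe set of PSMC6, however, had -0.34 ± 0.30 and r = -0.11 with the first, so the level of PSMC6 depended on which probe set was read.

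The non-ATPases include the base of the cap, its lid and chaperones that help to assemble it. In the lid, PSMD6 (gene 538625) had the largest difference of all subunits, -0.50 ± 0.16 (adjusted p = 0.0451), with signals of 424.9 to 1029 (median 697.3) in high and 596.1 to 1519 (median 959.8) in low muscling. The groups overlapped over most of the range, with 4 high animals below the low group and 9 low animals above the high group. PSMD14, the lid enzyme that removes ubiquitin from the substrate, was not called, with -0.26 ± 0.09 (adjusted p = 0.0788) and signals of 1890 to 3384 (median 2378) against 2518 to 3614 (median 2930). A second probe set of PSMD6 had a mean signal of 6.63, below the detection limit, as did that of PSMC5, with 35.1. PSMD11 and PSMD13, also of the lid, had 0.04 ± 0.12 and 0.04 ± 0.14.

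None of the base subunits was called. PSMD1 and PSMD2, the large scaffold proteins that receive shuttle factors, had 0.14 ± 0.10 (adjusted p = 0.454) and 0.04 ± 0.07 (adjusted p = 0.807), and PSMD4, a receptor for ubiquitin, had -0.04 ± 0.08 (adjusted p = 0.840), with 0.00 ± 0.08 in a second probe set (r = 0.87). The interval of PSMD1 was -0.06 to 0.34 and that of PSMD2 -0.10 to 0.19. PSMD5, PSMD9 and PSMD10 are chaperones of cap assembly and are not part of the finished particle. They had -0.14 ± 0.16, -0.24 ± 0.14 and -0.23 ± 0.18 (adjusted p = 0.673, 0.357 and 0.498), with low signals of 48.2 to 274.1 over all animals.

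The same comparison was made on the means of the sires. The means of the 3 high muscling sires were all below those of the 3 low muscling sires for 15 of 29 subunits (4 alpha, 5 beta, 2 ATPases and 4 non-ATPases), against 11.4% of all detected genes, and the reverse was seen for 0 subunits, against 7.85%. An exact permutation test over 3 against 3 sire means cannot give a two-sided p below 0.1. In limma with the 6 sire means as samples, 0 subunits and 0 of 6360 genes were called, while 7 subunits and 886 genes (13.9%) had an unadjusted p under 0.05.

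**Figure D2:**
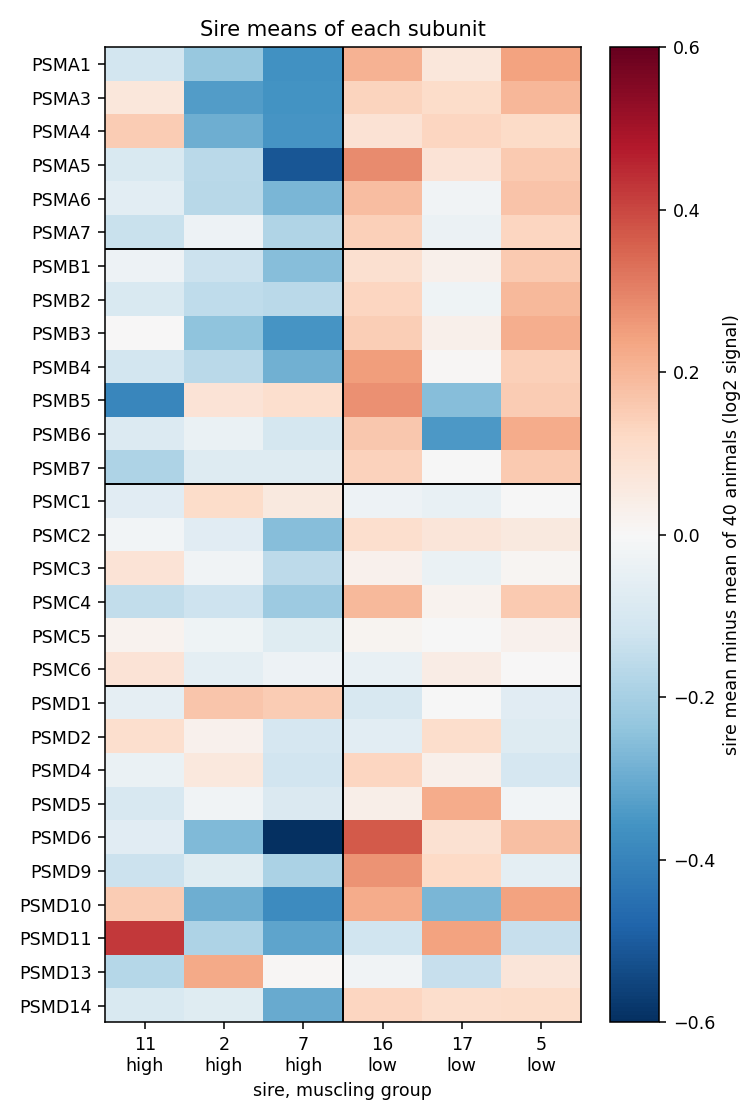
Mean log2 signal of each subunit (rows) in the progeny of each sire (columns), as the deviation from the mean of the 40 animals, with red above and blue below it. Lines separate the alpha ring, beta ring, ATPases and non-ATPases, and the high from the low muscling sires. The alpha ring is blue in sires 2 and 7 and red in sires 16 and 5. PSMB5 is blue in sires 11 and 17, PSMB6 is bluest in sire 17, and PSMD11 is red in sires 11 and 17.

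The fibroblast and macrophage markers described above were also lower in high muscling. With the mean log2 signal of the fibroblast markers as a covariate, chosen after the data were seen, 1 subunit (PSMB4) was called, and 12 had an unadjusted p under 0.05, as did 13.5% of all genes. The median differences were then -0.29 for the alpha ring and -0.20 for the beta ring, close to the values without the covariate. With the macrophage and leukocyte markers as the covariate, 0 subunits were called and 8 had an unadjusted p under 0.05, as did 12.5% of all genes, with medians of -0.21 and -0.155. Over all detected genes 49 and 34 were called with these covariates, in place of 495. The spiked controls were higher in high (median 11.11) than in low muscling (11.03). With their mean as a covariate 5 subunits were called, PSMA3, PSMA6, PSMB3, PSMB4 and PSMB7. Of all detected genes, 216 were then called lower and 92 higher.

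Averaged over each class, every animal got 1 value, the mean deviation of its subunits from their means over the 40 animals in log2 units. For the alpha ring this was -0.514 to 0.116 (median -0.150) in high and -0.070 to 0.341 (median 0.172) in low muscling. For the beta ring it was -0.247 to 0.110 (median -0.114) and -0.213 to 0.314 (median 0.139). All 8 progeny of sire 16 and all 8 of sire 5 were above 0 for the beta ring, and all 5 of sire 17 were below 0. The ATPases (medians of -0.035 and 0.034) and the non-ATPases (-0.061 and 0.073) differed less and overlapped more.

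**Figure D3:**
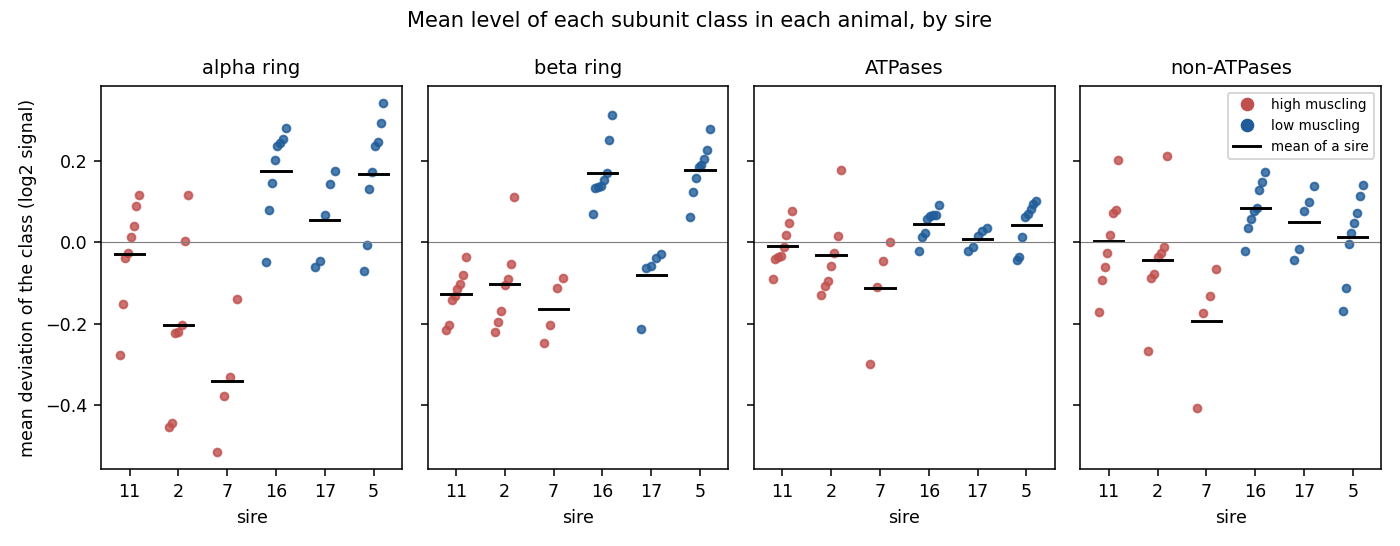
Mean deviation of each subunit class in each animal (points, log2 signal, y axis) by sire (x axis), with a bar at the mean of each sire; red is high and blue low muscling. In the beta ring the means of the progeny of sire 17 (-0.213 to -0.028) lie in the range of the high muscling animals, a position carried by PSMB5 and PSMB6.

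The beta ring mean of sire 17 was carried by PSMB5 and PSMB6, which are described below. The median deviation of its 7 beta subunits was 0.00, between -0.16 to -0.09 in the high muscling sires and 0.15 and 0.16 in sires 16 and 5. The mean of its alpha ring was 0.055, against 0.175 for sire 16 and 0.168 for sire 5. Without the progeny of sire 17, 15 subunits were called between high and low muscling, all 10 called with all animals and also PSMA7, PSMB1, PSMB2, PSMB5 and PSMB6. Without sire 16, or without sire 5, 0 subunits were called, although 12 and 11 had an unadjusted p under 0.05, all lower in high muscling, as did 12.1% and 12.2% of all genes in either direction. Without sire 7 the number was 3 (PSMA3, PSMA6 and PSMB4), without sire 2 it was 6, and without sire 11 it was 11. Of all 6360 genes, 191 were called lower and 81 higher without sire 7. These counts were 196 and 94 without sire 2, and 452 and 233 without sire 11. The number of genes called over the whole array ranged from 23 without sire 5 to 1221 without sire 17.

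Among the high muscling sires, the mean level of the subunits was lowest in sire 7 and highest in sire 11. The class means of the alpha ring were -0.029 in the progeny of sire 11, -0.203 in those of sire 2 and -0.341 in those of sire 7. The ATPases and the non-ATPases had the same order. The beta ring did not, with -0.128, -0.103 and -0.163 for sires 11, 2 and 7. The arrays of sire 7 also had the lowest ratios of 3′ to 5′ signal for actin (0.849 to 0.928, median 0.909, against medians of 0.958 to 1.01 in the other families) and median signals of 65.6 to 66.95. Other families stood apart in other control ratios. For GAPD the median was highest in sire 11 (1.30, against 1.15 to 1.23). For EF1A it was lowest in the low muscling sire 17 (0.00776, against 0.0120 to 0.0160). The EF1A ratio was only 0.0057 to 0.0267 over all arrays, so its 3′ signal was far below its 5′ signal, unlike for actin and GAPD. Of the cell type markers, ACTA1, DES, COL1A1, LUM, CDH5 and VWF differed between the high muscling sires by the same F test as used below. The part of these array ratios and markers in the differences between the families was not tested. By the moderated F test of limma, 5 subunits differed between these 3 families, against 14.2% of all detected genes, a share of the subunits close to that background. They were PSMA3 (adjusted p = 1.1e-04), PSMA4 (0.0179), PSMB3 (0.00545), PSMB5 (1.3e-04) and PSMD11 (1.9e-05). Next in order were PSMC2, with an adjusted p of 0.0595, and PSMC3, with 0.109. PSMC2 was 4837, 4911, 5930 and 6245 in the progeny of sire 7, against 5699 to 7078 (median 6576) by sire 11 and 5505 to 6630 (median 6410) by sire 2.

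PSMA3, PSMA4 and PSMB3 were higher in the progeny of sire 11 than in the other high muscling families. PSMA3 signals were 3843 to 4732 (median 4188) by sire 11 and 2828 to 3647 (median 3112) by sire 2, while the 4 progeny of sire 7 had 3009, 3097, 3188 and 3218. No animal of sire 11 overlapped the other families. The contrast of sire 11 with sire 2 called 5 subunits, the same as the F test, and 15.1% of all genes, and that with sire 7 called these and PSMC2 (0.24 ± 0.07, adjusted p = 0.0325), and 10.6% of all genes. For PSMA3 the differences were 0.41 ± 0.07 and 0.43 ± 0.09 (adjusted p = 1.8e-04 and 0.00130). Levels of PSMA3 in the progeny of sire 11 thus lay within the low muscling range of 3613 to 5186.

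PSMB3 was likewise highest in sire 11, with 3630 to 4512 (median 4133) by sire 11, 3001 to 4247 (median 3418) by sire 2 and 3016, 3108, 3299 and 3367 by sire 7. Sire 11 was above sire 2 by 0.24 ± 0.07 (adjusted p = 0.0214) and above sire 7 by 0.35 ± 0.09 (adjusted p = 0.00638). PSMA4 signals were 1262 to 2074 (median 1829) by sire 11, 740.6 to 1759 (median 1457) by sire 2 and 1154, 1161, 1208 and 1520 by sire 7. Its differences were 0.45 ± 0.13 from sire 2 (adjusted p = 0.020) and 0.51 ± 0.16 from sire 7 (adjusted p = 0.0355), with families that overlapped.

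PSMB5, the catalytic subunit with chymotrypsin-like activity, went the other way. Its signals were 2403 to 2925 (median 2736) in the progeny of sire 11, 3145 to 4350 (median 3821) in those of sire 2 and 3395, 3521, 3619 and 4731 in those of sire 7. All 8 progeny of sire 11 were below all 11 of the other high muscling animals, with differences of -0.47 ± 0.09 from sire 2 (adjusted p = 2.0e-04) and -0.49 ± 0.10 from sire 7 (adjusted p = 0.00156). PSMD11, of the lid, was instead highest in sire 11, at 5283 to 6885 (median 6238). It ranged from 3064 to 5073 (median 3964) by sire 2 and was 3058, 3671, 4073 and 4103 by sire 7, so that sire 11 did not overlap them here either. The differences were 0.61 ± 0.10 and 0.74 ± 0.12 (adjusted p = 8.9e-05 and 2.0e-04).

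Within low muscling the families differed in PSMB5 and PSMD11 again, and in PSMB6. The F test called these 3 subunits, against 10.5% of all detected genes and so again at the background share, with adjusted p-values of 7.2e-04 for PSMB5, 9.8e-05 for PSMB6 and 0.0417 for PSMD11. In each it was sire 17 that differed from both other families. Contrasts of sire 16 with sire 17 called 9.76% of all genes, and those of sire 17 with sire 5 called 12%. PSMB4 was next, at an adjusted p of 0.118, with 4615, 4682, 5100, 5166 and 5227 by sire 17, against 5445 to 6865 (median 5786) by sire 16 and 4698 to 6339 (median 5527) by sire 5.

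PSMB5 was 2585, 2615, 2633, 3435 and 3694 in the 5 progeny of sire 17, against 3881 to 4626 (median 4245) by sire 16 and 3300 to 4386 (median 3942) by sire 5. Sire 16 was higher than sire 17 by 0.53 ± 0.09 (adjusted p = 4.7e-04), and sire 17 differed from sire 5 by -0.41 ± 0.09 (adjusted p = 0.00332). The 3 lowest progeny of sire 17 fell in the range of the progeny of sire 11, and the other 2 did not. PSMB6 was 3715, 4243, 4297, 4517 and 5244 by sire 17, all below the lowest progeny of sire 16 (5336 to 7474, median 6143) and of sire 5 (6007 to 7350, median 6428). The differences were 0.51 ± 0.09 and -0.57 ± 0.09 in the same order of contrasts (adjusted p = 4.1e-04 and 5.6e-05).

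In PSMD11, sire 17 was the higher family, with 4469, 5018, 5499, 6076 and 6433 against 3774 to 4656 (median 4346) by sire 16 and 3326 to 4772 (median 4433) by sire 5. Sire 16 differed from sire 17 by -0.36 ± 0.11 (adjusted p = 0.0393), and sire 17 was above sire 5 by 0.38 ± 0.11 (adjusted p = 0.0234). This call rested on few animals, since the F test no longer passed when progeny 71, 85 or 88 of sire 17 was left out (adjusted p = 0.0959, 0.175 and 0.144). It also missed the threshold with median centring (adjusted p = 0.0714), without the detection filter (0.0657) and with the mean of all probe sets of a gene (0.0508). Sires 11 and 17, of opposite muscling groups, were thus the families with low PSMB5 and high PSMD11 relative to the rest of their own group.

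**Figure D4:**
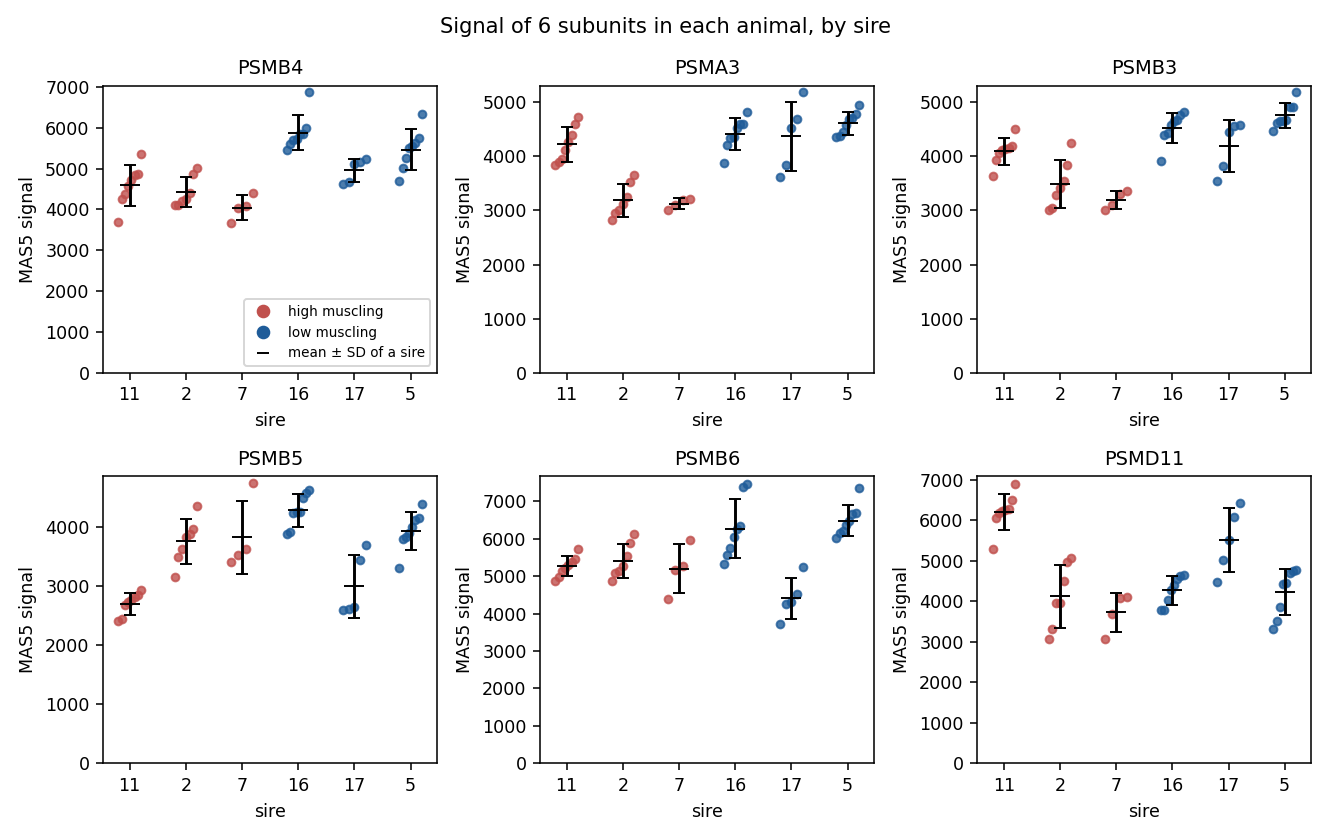
MAS5 signal (linear scale, y axis from 0) of 6 subunits in each animal (points) by sire (x axis), with the mean ± SD of each sire; red is high and blue low muscling. PSMB4 separates most animals by muscling group, PSMA3 and PSMB3 are raised in sire 11 within the high group, PSMB5 is low in sires 11 and 17, PSMB6 is low in sire 17 (3715 to 5244), and PSMD11 is high in sires 11 and 17.

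Differences between the 6 sire families, which include that between the muscling groups, accounted for more of the variation in the core than in the cap. The median share of the sum of squares of log2 signal that lay between the 6 sires was 67.4% for the beta ring and 52.2% for the alpha ring, against 22.5% for the ATPases, 27.2% for the non-ATPases and 25.9% for all detected genes. It was highest for PSMA3 (79.6%), PSMB5 (76.0%) and PSMB3 (75.4%), and lowest for PSMD5 (7.79%) and PSMC1 (8.91%). PSMB4 had 71.3%, yet was not called between sires within high or low muscling (F test, adjusted p = 0.341 and 0.118). Total variation was smaller in the subunits than elsewhere, with a median standard deviation over the 40 animals of 0.23 in log2 units, against 0.38 for all detected genes. The ATPases varied least, with a median of 0.13. The assembly chaperones, with their low signals, had 0.35, and the background of all detected genes was not matched for signal level. These values are descriptions, and no test was made of them.

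Subunits of the core also varied together from animal to animal. Over the 40 arrays the median Pearson correlation (r) was 0.693 for the 15 pairs of alpha subunits, 0.468 for the 21 pairs of beta subunits and 0.557 between alpha and beta subunits. It was 0.207 within the ATPases and 0.101 within the non-ATPases, and 0.009 over all pairs of detected genes. Over all 78 pairs of core subunits it was 0.572, over the 120 pairs of cap genes 0.145 and between core and cap 0.222. Of the cap genes, PSMD5, PSMD9, PSMD10 and PSMD13 had mean signals of only 89.8 to 184, against 1189 or more in the core. The part of signal level in the lower r was not tested. The points share their sires, and arrays share scaling, so these correlations are given without a p. With the mean of each sire removed, the alpha ring had 0.530, while the beta ring fell to 0.126, the ATPases had 0.194 and the non-ATPases 0.103. The core as a whole then had 0.288, the cap 0.140 and core with cap 0.238.

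Within the beta ring the subunits did not behave alike. The mean r with the core was 0.63 for PSMB3 and 0.61 for PSMB4, but 0.24 for PSMB5 and 0.30 for PSMB6, and without the sire means the last had -0.10. In the alpha ring PSMA1 and PSMA6 led, with mean r of 0.66 and 0.64 with the other core subunits. Some cap subunits were as close to the core as its own members, namely PSMC2 (0.59), PSMD14 (0.54), PSMD6 (0.54) and PSMC4 (0.52). Of these PSMC2, PSMC4 and PSMD6 are the cap subunits called between the muscling groups. The r over all animals includes the difference between the groups, so this match is partly built in. With the sire means removed, the mean r with the core was 0.39 for PSMC2, 0.38 for PSMD14, 0.28 for PSMD6 and 0.25 for PSMC4. Other cap subunits came closer to the core once the sire means were removed, PSMD11 from 0.10 to 0.42, PSMD2 from 0.01 to 0.29 and PSMD1 from -0.07 to 0.28.

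**Figure D5:**
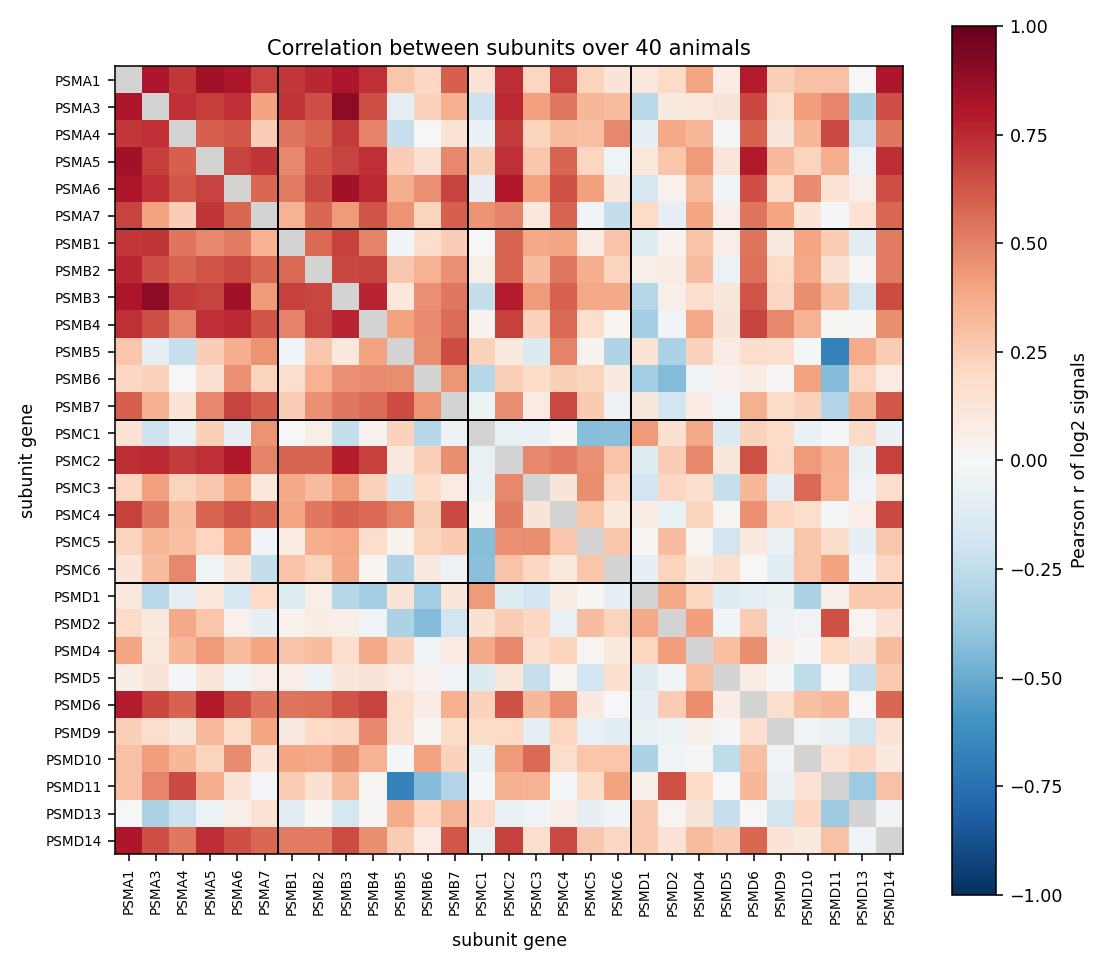
Pearson r of log2 signals over the 40 animals for each pair of the 29 subunits (both axes, ordered by class, lines between classes), red above and blue below 0. The alpha ring and PSMB1 to PSMB4 form a red block (median r of 0.693 within the alpha ring) that PSMC2, PSMC4, PSMD6 and PSMD14 share, whereas PSMB5 and PSMB6 stand outside it.

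Other genes of the proteasome pathway were read from the same fits. Of 42 listed symbols 27 had a probe set, and all 27 were detected. In high against low muscling 4 were called, all lower in high muscling, where 5.5% of all genes were called lower, and 12 of 27 were above 0, with a median difference of -0.01. Over all detected genes 44.2% were above 0 and the median was -0.04. POMP and PSMG2, which act in the assembly of the core, had mean signals of 3783 ± 327 (SD, n = 19) and 2662 ± 258 in high and 4746 ± 546 (n = 21) and 3235 ± 387 in low muscling. Their differences were -0.31 ± 0.07 (SE, adjusted p = 0.00406) and -0.27 ± 0.07 (adjusted p = 0.0178). PSMB9 and PSMB10, which replace PSMB6 and PSMB7 in the immunoproteasome, had -0.58 ± 0.16 (adjusted p = 0.0207) and -0.48 ± 0.15 (adjusted p = 0.0347), whereas PSMB8, which replaces PSMB5, had -0.25 ± 0.18 (adjusted p = 0.464).

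Between sires 1 of the 27 genes was called within high and 3 within low muscling, against 14.2% and 10.5% of all genes. Neither share was clearly above that background. UBA1, the main enzyme that activates ubiquitin, differed between the high muscling sires (F test, adjusted p = 8.5e-05). Between the low muscling sires POMP (adjusted p = 0.00276), the assembly chaperone PSMG3 (0.00313) and NFE2L1 (0.00516), a transcription factor that induces proteasome genes, differed. The mean log2 signal of POMP was 11.95 in the progeny of sire 17, against 12.28 in those of sires 16 and 5, while NFE2L1 was higher in sire 17 (11.37) than in sire 16 (10.52) or sire 5 (10.26). In the progeny of sire 17, POMP was thus lower than in the other low muscling families, as were PSMB5 and PSMB6. Its level there was close to that of the high muscling sires (11.79 to 11.94). Of the other assembly genes of the core, PSMG3 was lower in sire 17 (6.32, against 7.41 in sire 16 and 7.33 in sire 5). PSMG2, not called, was also lower (11.47, against 11.74 and 11.67), and PSMG1, not called, was higher (9.89, against 9.62 and 9.63). A link between these genes was not tested.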

How the data were processed

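The authors deposited MAS5 signal intensity values, 1 per probe set and array, scaled so that the mean of each array with 2% trimmed at each end is 200. The version of MAS5 is not given in the sources used here. Log2 of the signal was taken with no further normalization. Of the 24128 probe sets, 13292 had 1 gene symbol in the platform annotation. Arrays give no counts, so their number limits the precision.

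Groups came from the sample labels, as did the sires. Labels do not give a date or batch. The muscling groups were compared in limma 3.58.1 (R 4.3.3) with a random effect of sire, whose estimated correlation was 0.135. Sires within a group were compared with a moderated F test in 1 fit with a mean per sire. P-values were adjusted (Benjamini-Hochberg) over the 6360 detected genes. The fits were tested on simulated data with independent genes. For the muscling groups every simulated gene had the same sire correlation of 0.135, so genes with larger differences between families were not covered. Figures were drawn with matplotlib 3.10.9, with tables made in Python 3.11.15, numpy 2.4.6 and pandas 2.3.3.

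The subunits and gene lists were chosen with earlier results of these data known. Each subunit is named at least once. Values by animal are given for subunits called in a comparison and, in any case, for the 4 with the smallest p in each test. Of the other pathway genes, those called are named. Alternatives were median centring, no detection filter, quantile normalization, a floor set at percentile 20 of each array, the mean of all probe sets, spiked controls as a covariate, no block, sire means as samples, Spearman correlation and leaving out families or animals. The marker covariates and the additional probe sets were added after the data were seen. The replicates of a sire are its progeny, so p-values measure the spread between animals. Between the muscling groups, the spread between sires entered only through the correlation of 0.135 that all genes shared. Of the subunits called there, PSMA3 and PSMB3 also differed between the high muscling sires (F test, adjusted p = 1.1e-04 and 0.00545). For subunits with such family differences the shared value may be too low, and their p-values between the groups too small.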

Additional observations from a re-analysis of the deposited data

Results flagged for a closer look

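Within the sire families, 204 sets of values were searched for an animal far from the rest of its family, and 8 were found. Chance gives about 1 in 20, so these 8 are no more than the chance share. The value given for each is the gap to the nearest relative as a share of the range of the family. For PSMA4 these were the lowest progeny of sire 11, at 1262 (0.622), and the highest of sire 7, at 1520 (0.834). PSMB2 had a high animal by sire 11, at 1390 (0.599), PSMB3 a low one by sire 16, at 3919 (0.548), and PSMB4 a high one by sire 16, at 6865 (0.579). PSMC5 had a low animal by sire 17, at 2181 (0.779), and PSMD2 a low one by sire 16, at 1526 (0.589). In the mean of the beta ring, 1 progeny of sire 17 was at -0.213 log2 units (0.813), below the other 4, which were at -0.06 to -0.03. These animals were kept in all comparisons.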

How the results depend on the processing

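The 10 subunits called between high and low muscling kept their sign under 16 of 16 alternatives, and 0 subunits were called higher under any of them. The number called was 6 with quantile normalization, 5 with the spiked controls as a covariate, 1 with the fibroblast markers and 0 with the macrophage markers as a covariate, and 0 with sire means as samples, where 12, 11, 12, 8 and 7 had an unadjusted p under 0.05, as did 21.8%, 19.6%, 13.5%, 12.5% and 13.9% of all genes. It was 14 without the block and 0 to 15 when a sire family was left out. Of all genes 495 were called, against 49 and 34 with the marker covariates, 308 with the spiked controls, 1586 without the block, 0 with sire means (886 at an unadjusted p under 0.05) and 23 to 1221 without a family. The share of called genes that were lower in high muscling was 70.7%, and 85.8% with median centring. The median of the ATPases turned to 0.0242 with quantile normalization and was -0.11 with the mean of all probe sets. Without a family the medians were -0.45 to -0.26 for the alpha ring, -0.29 to -0.19 for the beta ring, -0.07 to 0.00 for the ATPases, -0.16 to -0.06 for the non-ATPases and -0.25 to -0.16 for all subunits.

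Within high muscling 8 subunits were called with median centring. The share of all genes called in that run is not given here, so this count is not read as a result about the subunits. Within low muscling 440 to 660 genes were called when an animal of sire 17 was left out. The median r within the core was 0.665 with median centring and 0.448 with quantile normalization, and 0.404 with centring and sire means removed. Within the cap it was 0.270 with centring, 0.0875 with quantile normalization and 0.10 by Spearman, and with sire means removed 0.228 with centring, 0.0772 with the mean of all probe sets and 0.0818 by Spearman. Between core and cap it was 0.369 with centring, 0.142 with quantile normalization and 0.184 with the mean of all probe sets, and with sire means removed 0.330, 0.144 (mean of all probe sets) and 0.199 (Spearman). Without a family, median r was 0.539 to 0.605 (core), 0.0694 to 0.175 (cap) and 0.167 to 0.274 (core with cap), and with sire means removed 0.217 to 0.341, 0.0755 to 0.168 and 0.188 to 0.267. The causes of these changes were not tested. The 3 sires per group and 1 array per animal limit the precision, and no array carries a technical repeat.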
